A study of Mus musculus with 13 samples.

Results

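The panel of p53 response genes described here holds Mdm2, Cdkn1a, Ccng1, Trp53inp1, Aen, Bax, Eda2r, Phlda3, Sesn1 and Sesn2. They, and the gene lists used below, were chosen by symbol with earlier results of these data known. All 10 were found once each among the 55536 genes of the deposited count table. RNA was measured in nuclei from the ventricles of C57BL/6J mice, an inbred strain, sorted for Pcm1, a protein that marks cardiomyocyte nuclei. On postnatal day 1 the pups were given 1 intraperitoneal dose of adeno-associated virus serotype 6, and ventricles were taken on postnatal day 56. The vector had either no insert (control vector, Con) or human progesterone receptor (PGR vector, PGR), so every group, controls included, had received virus. Females given control vector (Con_F) had 4 libraries. Males given control vector (Con_M), females given PGR vector (PGR_F) and males given PGR vector (PGR_M) had 3 each. Each library came from 3 to 6 ventricles, so 1 value averages several animals. The labels do not say which promoter drives the insert, and they do not say that the pools were prepared separately, so the p-values below measure only the spread between these libraries.

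The transcription factor p53 (gene Trp53) is held at a low level by the ubiquitin ligase Mdm2 and is stabilised by DNA damage and other stress. It then binds paired copies of a 10-base motif near its target genes and raises their transcription, and its targets stop the cell cycle, repair DNA, start cell death or adjust metabolism. Mdm2 is itself a target, which closes a negative feedback loop. In the adult heart, cardiomyocytes have mostly left the cell cycle, and p53 activity is best known there from ischaemia, overload and anthracycline injury.

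Total counts were 31.8 to 86.3 M per library. The 8 cardiomyocyte markers (Myh6, Tnnt2, Ryr2, Actn2, Tnni3, Ttn, Mybpc3 and Pln) summed to 76836 to 96260 counts per M (CPM, scaled by TMM), against 25.4 to 101 CPM for 8 fibroblast markers, 26.9 to 61.6 for 9 endothelial markers and 8.72 to 20.0 for 9 macrophage markers. These sums are not scaled by gene length, so they do not give shares of cell types. In Con_F 1 Ttn gave 48600 and Ryr2 18400 of the 91588 CPM of the cardiomyocyte markers. All 7 lymphocyte markers were below the count filter, with 0 to 14 counts per library. Con_F 4 stood apart: its counts from 4 Y-linked genes were 1.01% of the male level, against 0.0112% to 0.112% in the other 6 female libraries, and results that rest on it are given with and without it.

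Promoter windows are shown to give the motif that p53 binds, in the genes where it was found near an annotated transcript start. RefSeq windows on GRCm38.p6, each 250 bases before to 50 bases after a transcript start, matched 9 of the 10 genes in 12 windows, and Trp53inp1 was not matched. The 10-base p53 consensus motif reads the same on both strands. It was present in 7 of the 12 windows (58.3%), which belong to 6 genes, and in 2745 of all 32851 windows (8.36%). The Aen motif is the same site in overlapping windows and is counted in each. The panel was chosen as p53 response genes, so its share is a description only. A pair of motifs with at most 13 bases between them was in 24 of all windows (0.0731%) and in 1 window of the panel, that of Cdkn1a. The Cdkn1a window with the pair lies 2790 bases upstream of its other window, the motifs are 12 bases apart, and the 10 bases right after the second one match the consensus at 9 of 10 positions. For Cdkn1a and Mdm2 the window is shown up to the first annotated exon base. For the other 4 genes the motif is shown with its flanks. Capitals mark the motif, and the sequences run 5′ to 3′ on the strand of the gene.
Cdkn1a, chr17:29090729-29090975 (+ strand): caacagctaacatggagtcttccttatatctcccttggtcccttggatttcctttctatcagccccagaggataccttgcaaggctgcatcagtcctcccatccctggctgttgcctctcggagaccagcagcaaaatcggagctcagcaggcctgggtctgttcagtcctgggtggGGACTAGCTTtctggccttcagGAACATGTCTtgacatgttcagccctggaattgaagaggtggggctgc
Mdm2, chr10:117710759-117711008 (- strand): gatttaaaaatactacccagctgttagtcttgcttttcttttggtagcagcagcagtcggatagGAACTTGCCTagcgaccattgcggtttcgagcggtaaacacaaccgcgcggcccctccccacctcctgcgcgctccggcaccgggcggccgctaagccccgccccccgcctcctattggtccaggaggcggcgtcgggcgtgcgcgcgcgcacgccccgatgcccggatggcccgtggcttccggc
Ccng1, motif at chr11:40755462-40755471 (- strand): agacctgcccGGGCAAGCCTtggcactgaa
Bax, motif at chr7:45467090-45467099 (- strand): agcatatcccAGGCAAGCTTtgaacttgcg
Aen, motif at chr7:78895937-78895946 (+ strand): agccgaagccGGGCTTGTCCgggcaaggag
Sesn1, motif at chr10:41887266-41887275 (+ strand): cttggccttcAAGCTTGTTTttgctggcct

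These letters describe the windows only, and a match is not a measured binding site. The motif of Aen lies 121 bases before 1 of its RefSeq starts and inside an annotated exon of a transcript that starts further upstream. The window of Sesn1 begins at chr10:41887189, well inside the counted interval of the gene, which begins at chr10:41809935 on the + strand. No match was found in the windows of Eda2r, Phlda3 and Sesn2. For Mdm2, p53 is known to act mainly from the first intron, which the window does not cover.

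All 10 are protein-coding, and the deposited table places them on GRCm38, with intervals that match GENCODE M21 whole genes. The feedback and cell cycle genes are Mdm2 (ENSMUSG00000020184) at chr10:117688875-117710758 (- strand), Cdkn1a (ENSMUSG00000023067) at chr17:29090976-29100727 (+ strand), Ccng1 (ENSMUSG00000020326) at chr11:40748552-40755311 (- strand). The autophagy and cell death genes are Trp53inp1 (ENSMUSG00000028211) at chr4:11156431-11174379 (+ strand), Aen (ENSMUSG00000030609) at chr7:78895854-78911209 (+ strand), Bax (ENSMUSG00000003873) at chr7:45461697-45466898 (- strand), Eda2r (ENSMUSG00000034457) at chrX:97333840-97377216 (- strand), Phlda3 (ENSMUSG00000041801) at chr1:135766119-135769136 (+ strand). The sestrins are Sesn1 (ENSMUSG00000038332) at chr10:41809935-41908424 (+ strand) and Sesn2 (ENSMUSG00000028893) at chr4:132492032-132510501 (- strand). The human insert was not analysed here, so the vector labels were taken as given.

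The levels of the 10 genes spanned a wide range. Levels between genes are compared as CPM per kilobase of the counted interval, which holds introns as well as exons. Exons made up 4.04% of the interval of Sesn1 and 52.0% of that of Ccng1. Ccng1, whose product cyclin G1 brings a phosphatase to Mdm2, stood highest at 5.58 ± 0.662 CPM per kilobase (SD, n = 13), above 97.2% of the 16125 genes tested. Sesn1 (2.88 ± 0.304, n = 13) and Mdm2 (2.38 ± 0.181) followed, then Aen (1.14 ± 0.216), Trp53inp1 (0.616 ± 0.105), Bax (0.513 ± 0.0756), Cdkn1a (0.436 ± 0.199), Phlda3 (0.229 ± 0.0616), Sesn2 (0.141 ± 0.0269) and Eda2r (0.0671 ± 0.0113), on the same scale and over the same 13 libraries. Neighbours kept their order in 13 of 13 libraries from Ccng1 down to Trp53inp1. Trp53inp1 was above Bax in 11 libraries, Bax above Cdkn1a in 8 and Cdkn1a above Phlda3 in 11. Phlda3 was above Sesn2 in 12 libraries and Sesn2 above Eda2r in 12, so none of these orders held in every library. The ranges over libraries were separate for 2 neighbouring pairs only, Ccng1 above Sesn1 and Mdm2 above Aen. Eda2r, at the bottom, lay above 21.4% of genes tested.

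All 10 genes passed the count filter in edgeR's quasi-likelihood analysis, fitted to all 13 libraries and 16125 genes, in which a gene counts as called at a Benjamini-Hochberg adjusted p under 0.05. A log2 fold change compares PGR vector with control vector, or females with males, and its standard error (SE) follows. None of the 10 was called in any of the 6 comparisons made. For the vector effect averaged over the sexes 0.0062% of all genes were called, 1 of 16125, and in females alone and in males alone 0%.

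**Figure D1:**
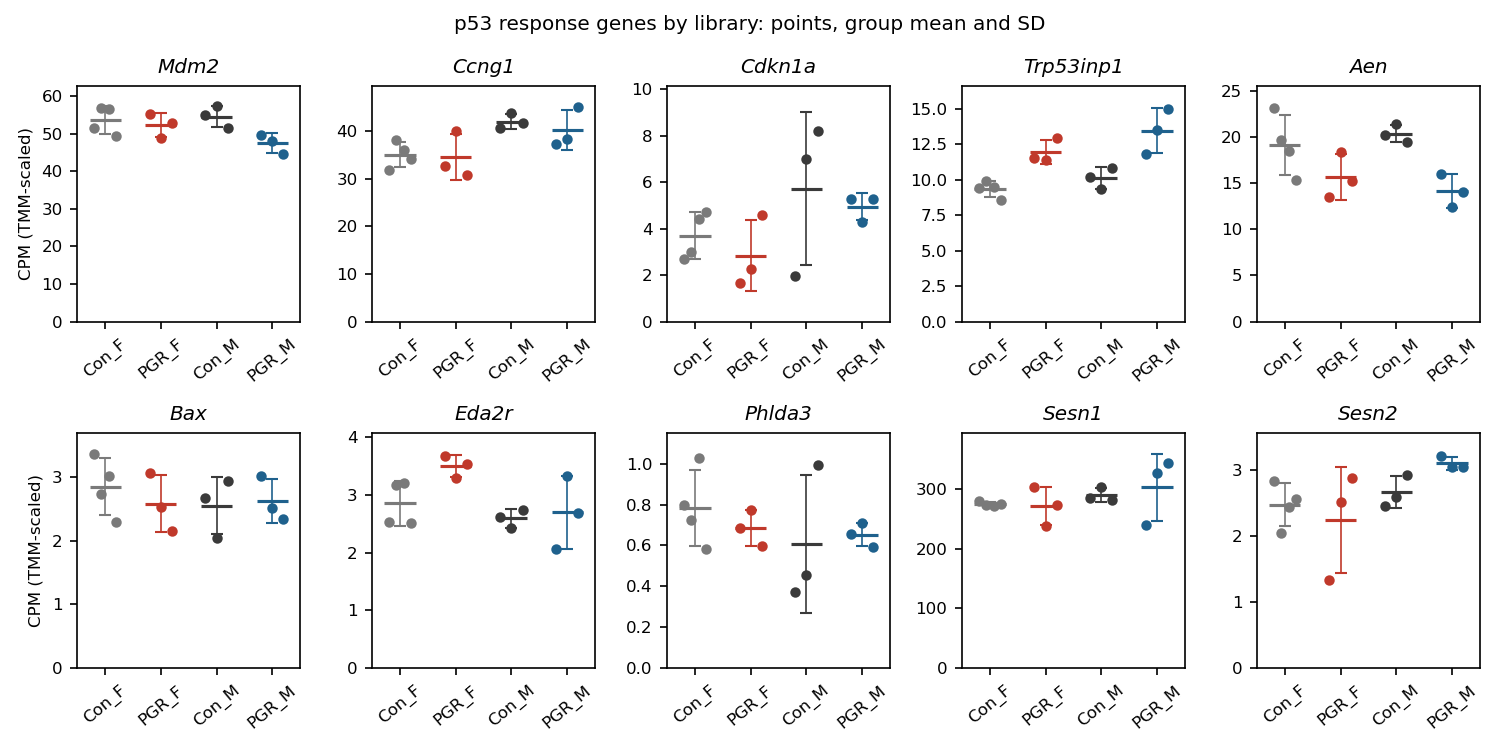
Level of each of the 10 genes (CPM, TMM-scaled, linear axis from 0) in every library, by group; points are libraries, the horizontal line is the group mean and the error bar 1 SD (n = 4 in Con_F, 3 in the other groups). The 6 PGR-vector points of Trp53inp1 lie between 11.4 and 15.0 CPM, above all 7 control points, and Cdkn1a spreads from 1.98 to 8.19 CPM within Con_M.

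Trp53inp1, a nuclear p53-inducible protein that takes part in autophagy and in p53 phosphorylation, showed the clearest separation by vector. Its level was 9.41, 9.87, 9.45 and 8.57 CPM in Con_F 1 to 4 and 11.5, 11.4 and 12.9 CPM in PGR_F 1, 2 and 4. In males it was 10.2, 9.32 and 10.8 CPM in Con_M 1 to 3 and 11.8, 13.5 and 15.0 CPM in PGR_M 1 to 3. All 6 PGR-vector libraries were above all 7 controls, a separation shown by 1 of the 10 genes and by 0.62% of all genes tested. The averaged log2 fold change was 0.38 (SE 0.07), a 1.30-fold difference with a 95% interval of 1.17 to 1.45, and it missed the threshold (edgeR adjusted p = 0.0755). It was 0.36 (SE 0.10) in females and 0.41 (SE 0.11) in males (edgeR adjusted p = 0.302 and 0.53), and the difference between the sexes was -0.05 (SE 0.15).

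Aen, an exonuclease that promotes apoptosis, lay on the other side. Its level was 23.1, 19.7, 18.5 and 15.3 CPM in Con_F 1 to 4 and 13.5, 18.4 and 15.2 CPM in PGR_F 1, 2 and 4. In males it was 20.2, 21.4 and 19.5 CPM in Con_M and 16.0, 12.4 and 14.0 CPM in PGR_M. The male groups did not overlap, and the female groups overlapped through Con_F 4 at the low end of the controls. The averaged log2 fold change was -0.41 (SE 0.10), 0.755-fold with a 95% interval of 0.653 to 0.872 (edgeR adjusted p = 0.107). It was -0.53 (SE 0.14) in males and -0.29 (SE 0.13) in females, and the difference of 0.24 (SE 0.20) was not called. With single libraries left out, the female value of Aen ran from -0.41 without PGR_F 2 to -0.18 without Con_F 1, and was -0.38 without Con_F 4. The difference ran from 0.11 without PGR_F 2 to 0.34 without Con_F 1, and was 0.15 without Con_F 4. Without Con_F 4 the lowest control library had 18.5 CPM and the highest PGR-vector library 18.4 CPM. Aen then also separated by vector over both sexes, by a narrow margin. Con_F 4 was the control library that had caused the overlap. The share of all genes that separate without it was not counted, so this separation is a description only.

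Calls for these 2 genes depended on 1 library and on the tool. Without Con_F 4 edgeR called both in the averaged comparison, Trp53inp1 at 0.36 (adjusted p = 0.0309) and Aen at -0.45 (adjusted p = 0.0295), in a fit that called 2.09% of all genes. DESeq2 also called both, at adjusted p = 0.000765 and 0.0151, with 2.51% called of the 13298 genes it gave an adjusted p. So did edgeR with no filter on low counts, with 0.464% of 31462 genes called. Over the 18 alternatives in all, the edgeR or DESeq2 adjusted p ranged from 0.000765 to 0.265 for Trp53inp1 and from 0.0151 to 0.294 for Aen, with 3 calls each. The ranges of summed markers overlapped between the vectors: 25.4 to 101 CPM in controls and 31.1 to 92.6 CPM with the PGR vector for fibroblasts, 26.9 to 60.8 and 29.8 to 61.6 for endothelium, and 8.72 to 20.0 and 10.9 to 19.8 for macrophages. All 8 macrophage markers tested were above 0 in the averaged comparison (median log2 fold change 0.16), none called. Atrial markers (Nppa, Myl7, Myl4, Sln and Bmp10) summed to 9.71 to 19.6 CPM in controls and 9.35 to 24.3 CPM with the PGR vector, and 5 of 5 were above 0 averaged (median 0.57, 2 at an unadjusted p under 0.05, none called). In males the atrial median was 1.11, with PGR_M 1 at 9.35 and PGR_M 2 and 3 at 18.6 and 24.3 CPM, and in females it was 0.02. Of the 8 cardiomyocyte markers 7 were below 0 in females (median -0.22) and 4 in males (-0.02), none called. Within the sexes all 9 endothelial markers were below 0 in females (median log2 fold change -0.23) and above 0 in males (0.25), none called. Their part in these differences was not tested, and in bulk nuclei fewer cells of a type and less RNA per cell cannot be told apart.

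**Figure D2:**
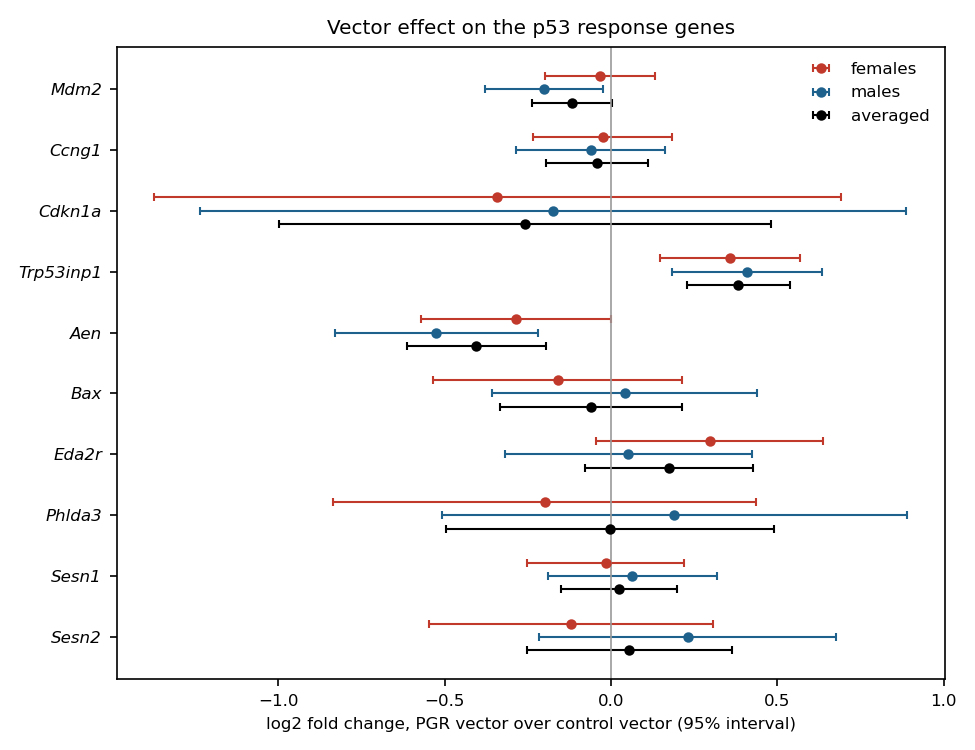
Log2 fold change of PGR vector over control vector for the 10 genes in females (red), males (blue) and averaged over the sexes (black), with 95% intervals from the edgeR fit. The averaged intervals of Trp53inp1 (0.38) and Aen (-0.41) lie on opposite sides of 0 and those of the other 8 genes include 0; none was called after adjustment over all genes.

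Mdm2, the feedback inhibitor of p53, varied little. Female libraries averaged 53.7 ± 3.81 CPM (SD, n = 4) with the control vector and 52.4 ± 3.22 (n = 3) with the PGR vector. Male libraries had 54.9, 57.3 and 51.6 CPM in Con_M 1 to 3, and PGR_M 1 to 3 had 49.8, 48.1 and 44.6 CPM, so the male groups did not overlap, while the female groups did. The log2 fold change was -0.20 (SE 0.08) in males (edgeR adjusted p = 0.611) and -0.03 (SE 0.08) in females. The averaged interval, 0.847 to 1.002-fold, limits any difference in Mdm2 more tightly than for the other genes.

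Cdkn1a encodes p21, the inhibitor of cyclin-dependent kinases through which p53 stops the cell cycle. Its level was 2.69, 2.99, 4.40 and 4.73 CPM in Con_F 1 to 4 and 1.68, 2.26 and 4.59 CPM in PGR_F 1, 2 and 4. It was 1.98, 6.98 and 8.19 CPM in Con_M 1 to 3 and 5.29, 4.28 and 5.26 CPM in PGR_M 1 to 3. The highest and the lowest library differed 4.86-fold, and Con_M alone held nearly that whole range. The log2 SD within groups was 0.67, against a median of 0.19 over all genes tested, and the counts, 54 to 306 per library, were well above the filter. The averaged log2 fold change was -0.26 (SE 0.34), with an interval of 0.501 to 1.40-fold, and it was -0.073 without Con_M 3 and -0.53 without PGR_F 4. Con_M 1 was the deepest library (86.3 M) and PGR_F 1 the shallowest (31.8 M), and these 2 had the lowest Cdkn1a, and the part of depth in this was not tested.

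Ccng1 did not separate by vector, with averaged log2 fold change -0.04 (SE 0.07), but it was lower in females under the control vector. Con_F 1 to 4 had 31.9, 38.1, 36.0 and 34.2 CPM and Con_M 1 to 3 had 40.6, 43.7 and 41.6 CPM. The groups did not overlap, and females over males stood at -0.26 on the log2 scale (SE 0.10, edgeR adjusted p = 0.299). With the PGR vector the female range (30.8 to 39.9 CPM) and the male range (37.3 to 45.0 CPM) overlapped, at -0.22 (SE 0.11), which was -0.15 without PGR_M 3 and -0.34 without PGR_F 2.

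The cell death genes Bax, Eda2r and Phlda3 showed no called difference. Bax, which permeabilises the outer mitochondrial membrane, ranged from 2.05 to 3.36 CPM (72 to 229 counts), with an averaged log2 fold change of -0.06 (SE 0.13). Its interval overlaps the predicted gene Gm45808 on the same strand, which had at most 28 counts per library, and the sources used here do not say how reads in the shared stretch were assigned. Eda2r, an X-linked receptor for ectodysplasin A2, had 2.53, 3.17, 3.21 and 2.51 CPM in Con_F and 3.68, 3.30 and 3.54 CPM in PGR_F, which did not overlap (log2 fold change 0.30, SE 0.16, edgeR adjusted p = 0.52). In males the Eda2r groups overlapped, at 0.05 (SE 0.17), and the difference between the sexes was 0.24 (SE 0.24), or 0.083 without PGR_M 1. Phlda3, a pleckstrin-homology protein that holds back Akt, had 16 to 46 counts per library and the averaged interval 0.708 to 1.40-fold.

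The sestrins, stress-induced proteins that restrain mTORC1, were expressed at different levels. Per kilobase of the counted interval, Sesn1 averaged 2.88 CPM and Sesn2 0.141 CPM over the 13 libraries. The CPM values that follow are not scaled by length. With the control vector Sesn1 averaged 274 ± 3.63 CPM (SD, n = 4) in females and 290 ± 11.4 (n = 3) in males, and with the PGR vector 271 ± 32.3 and 303 ± 56.3 (n = 3 each). The control libraries were tight, while the PGR-vector libraries spread from 238 to 344 CPM. Its averaged log2 fold change was 0.02 (SE 0.08). Sesn2 had 2.46, 2.59 and 2.93 CPM in Con_M and 3.21, 3.05 and 3.04 CPM in PGR_M, which did not overlap. In females it had 2.84, 2.05, 2.44 and 2.56 CPM in Con_F and 1.34, 2.51 and 2.88 CPM in PGR_F, where PGR_F 1 (43 counts) was the lowest of all 13 libraries. The vector effect on Sesn2 was 0.23 (SE 0.21) in males and -0.12 (SE 0.20) in females, with a difference of -0.35 (SE 0.29) that was not called, and without PGR_F 1 the female value is 0.11 and the difference -0.12.

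The counts over the panel only describe genes that were chosen with earlier results of these data known. Counted over the panel, 2 of 10 genes did not overlap between the vectors in females (8.24% of all genes) and 4 of 10 did not in males (15.7%). At an unadjusted p under 0.05 there were 2 of 10 in females (10.9% of all genes), 3 in males (7.48%), 2 averaged (14.8%) and 0 for the difference between the sexes (3.26%). The panel was divided in sign. Averaged over the sexes 4 genes were above 0 and 6 below, with a median log2 fold change of -0.02, against 51.0% above 0 and a median of 0.00 over all genes tested. In females 2 were above 0 and in males 6. DESeq2 called 0 of the 10 in females alone (0.595% of genes), in males alone (0.187%) and for the difference between the sexes (0.00621%). These shares are of the genes to which DESeq2 gave an adjusted p.

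Sex comparisons called none of the 10 genes. Between Con_F and Con_M 0.229% of all genes were called and between PGR_F and PGR_M 0.143%, by edgeR. At an unadjusted p under 0.05 there was 1 of 10 in each, Ccng1 under the control vector (12.4% of all genes) and Eda2r under the PGR vector (7.25%). Groups did not overlap for Ccng1 and Sesn1 under the control vector (11.3% of all genes) and for Sesn2 under the PGR vector (13.7%). DESeq2 called 0 of the 10 in both, against 1.51% and 0.538% of the genes it gave an adjusted p. Fibroblast markers, 8 of 8 above 0 and 64.5 to 101 CPM in Con_F against 25.4 to 55.2 CPM in Con_M, had separate ranges by sex under the control vector. So had endothelial markers (9 of 9 above 0, 50.2 to 60.8 against 26.9 to 48.1 CPM) and atrial markers (5 of 5 above 0, 12.0 to 19.6 against 9.71 to 10.8 CPM), and no marker of the 3 lists was called. Their part in the values of Ccng1, Sesn1 and Mgmt was not tested.

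Trp53 and its regulators showed no called difference by vector. With the control vector Trp53 averaged 18.5 ± 2.37 CPM (SD, n = 4) in females and 18.4 ± 0.389 (n = 3) in males, and with the PGR vector 17.9 ± 0.968 and 18.3 ± 0.517 (n = 3 each), with an averaged log2 fold change of -0.03 (SE 0.07). Mdm4, a partner of Mdm2 that masks the activation domain of p53, was at -0.01 (SE 0.06). The phosphatase Ppm1d, a feedback target, was at 0.16 (SE 0.07), the DNA damage kinase Atm at 0.18 (SE 0.08) and the kinase Chek2 at -0.15 (SE 0.16), none called. Rpl11, a ribosomal protein that binds Mdm2, was at -0.26 (SE 0.08) and was picked for its small averaged p.

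A wider list of 84 other p53 pathway genes had 78 tested members. In the averaged comparison edgeR called 0 of them, 8 were higher and 3 lower at an unadjusted p under 0.05, and DESeq2 called 2, Tigar and Fas. These shares lie near 14.8% of all genes at the unadjusted p and 2.51% of the genes that DESeq2 gave an adjusted p. The median log2 fold change was 0.01, with 42 above 0 and 36 below. By role the medians were -0.02 for p53 and regulators (18 tested), 0.16 for cell cycle targets (8), 0.01 for cell death targets (15), 0.05 for metabolism and stress targets (15), 0.07 for DNA repair targets (10) and -0.02 for other targets (12).

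**Figure D3:**
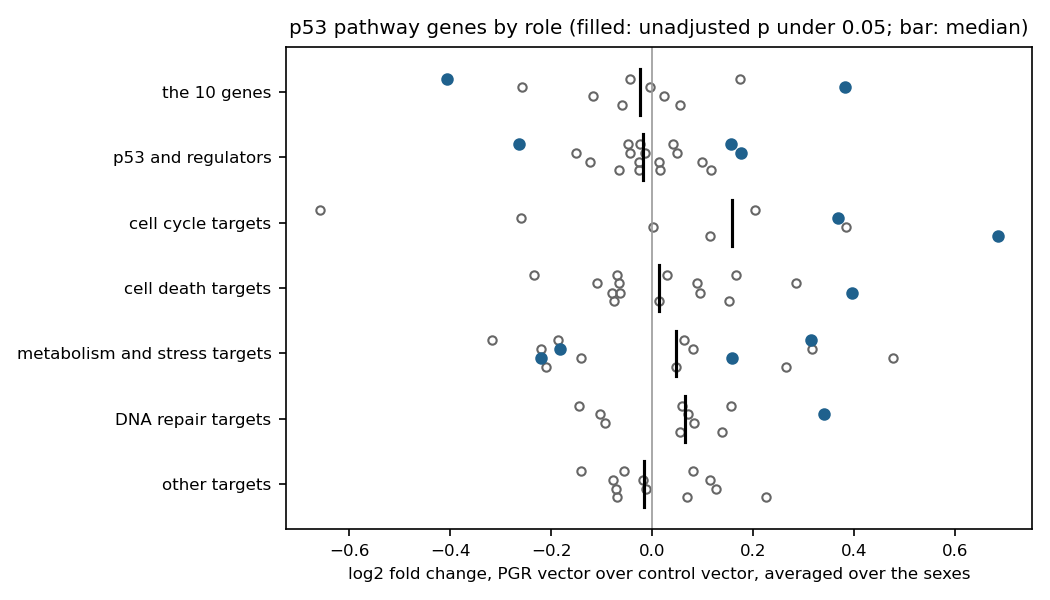
Log2 fold change of PGR vector over control vector, averaged over the sexes, for the 10 genes and for 78 other p53 pathway genes grouped by role; each point is a gene, filled where the unadjusted edgeR p is under 0.05, and the black bar is the median of the group. Filled points lie on both sides of 0, 1 on each side in the panel and 8 above and 3 below in the other genes, where 14.8% of all genes pass the same p, and medians stay between -0.02 and 0.16.

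Tigar, a fructose bisphosphatase that lowers glycolytic flux, had 48.9 to 58.2 CPM in the 7 controls (median 52.0) and 42.1 to 48.6 CPM in the 6 PGR-vector libraries. The ranges did not overlap, as for 0.62% of all genes tested, and the averaged log2 fold change was -0.22 (SE 0.06, edgeR adjusted p = 0.113). Tigar, Fas, Sesn3, Pcna, Plk2, Ak1, Pank1 and Rpl11 were picked for the smallest averaged p among the pathway genes not already named. Their small p is therefore fixed by the choice. The death receptor gene Fas had 12.6 to 23.3 CPM in controls (median 17.3) and 20.0 to 27.7 with the PGR vector, at 0.40 (SE 0.11, edgeR adjusted p = 0.137). Sesn3, the remaining sestrin, had a median of 15.2 and at most 16.0 CPM in controls and 15.8 to 19.1 with the PGR vector, at 0.31 (SE 0.09, edgeR adjusted p = 0.147). The replication clamp gene Pcna was at 0.34 (SE 0.13), with 0.67 (SE 0.17) in females and 0.01 (SE 0.19) in males. For Pcna the difference between the sexes was not called by edgeR. The kinase Plk2 was at 0.37 (SE 0.15). Ak1, an adenylate kinase, was at -0.18 (SE 0.07), and Pank1, a pantothenate kinase for coenzyme A synthesis, at 0.16 (SE 0.07). Without Con_F 4 edgeR called Tigar, Rpl11 and Sesn3, at adjusted p = 0.0481, 0.0367 and 0.0341, in the fit that called 2.09% of all genes.

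With all 13 libraries and the count filter, the 1 pathway gene called by edgeR in the 6 comparisons was Mgmt, which removes methyl groups from guanine in DNA. Con_F 1 to 4 had 39.2, 38.9, 35.1 and 39.8 CPM and Con_M 1 to 3 had 50.2, 52.8 and 45.6 CPM. The groups did not overlap, and Mgmt was lower in females, with log2 fold change -0.37 (SE 0.07) and an edgeR adjusted p of 0.0484. The call remained without Con_F 4 (adjusted p = 0.0348) and ended without any other single library, with an adjusted p of up to 0.338, and ended with the replicate block. With the PGR vector the values were 44.4, 46.6 and 43.2 CPM in females and 46.8, 47.7 and 48.3 CPM in males, a log2 fold change of -0.09 (SE 0.08).

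Within the panel the genes did not vary as 1 block across the 13 libraries. Pearson's r of log2 CPM was above 0 for 22 of the 45 pairs, with a median of -0.005, as a description over libraries that share depth and scaling. Cdkn1a and Sesn2 had the highest r (0.64, and 0.52 after group means were removed), followed by Bax and Phlda3 (0.57 and 0.52). After group means were removed the highest were Trp53inp1 with Eda2r (0.60, and 0.29 before) and Eda2r with Sesn1 (0.57, and 0.16 before). Trp53inp1 and Aen had the lowest (-0.67), which was -0.06 after group means were removed. Cdkn1a and Mdm2 had r = -0.20, and Cdkn1a and Trp53inp1 0.07.

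Among named genes with a mean log2 CPM of at least 1, predicted and clone-named genes left out, those most like Cdkn1a over the 13 libraries were Uck2, a uridine-cytidine kinase (r = 0.92), Pabpc4, a poly(A) binding protein (0.92), Cavin4, a caveolar protein of muscle (0.90), Plin5, which coats lipid droplets (0.89), and Leo1, a subunit of the Paf1 complex (0.89). Uck2 had 92.0, 128 and 155 CPM in Con_M 1 to 3, in the same order as Cdkn1a there, and 98.3, 97.0 and 116 CPM in PGR_F 1, 2 and 4. Plin5 had 23.7, 32.5 and 37.1 CPM in Con_M and 22.3, 25.7 and 37.1 CPM in PGR_F. These 5 were picked from the genes tested for their likeness, so the high r is fixed by the choice.

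**Figure D4:**
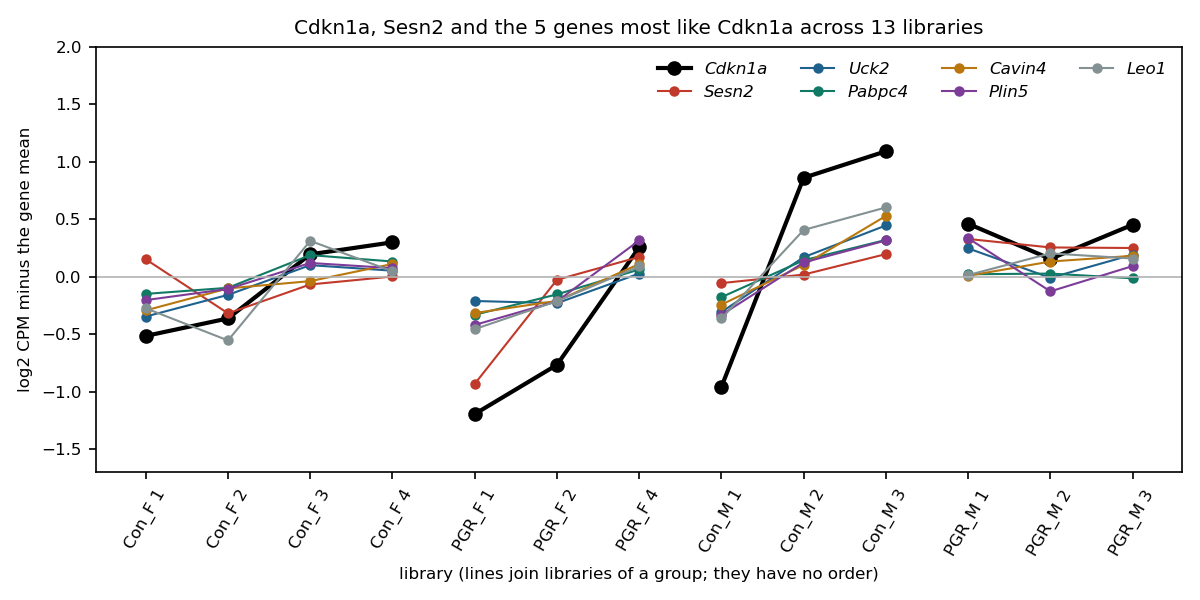
Log2 CPM minus the mean of the gene over 13 libraries for Cdkn1a (thick black), Sesn2 and the 5 named genes with the highest r to Cdkn1a at a mean log2 CPM of at least 1, by library; lines only join libraries of a group, which have no order. Cdkn1a is lowest in PGR_F 1 (1.68 CPM) and highest in Con_M 3 (8.19 CPM), and the 5 genes picked for likeness vary over a smaller range. Their order differs in part: Uck2 is lowest in Con_F 1 (89.5 CPM) and Plin5 highest in PGR_M 1 (37.6 CPM).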

How the data were processed

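RNA from Pcm1-sorted ventricular nuclei was depleted of ribosomal RNA and sequenced as strand-aware libraries, per the labels' protocols. The authors deposited raw counts per gene for 13 libraries. GRCm38 and mm10 are the builds, and featureCounts 1.5.0 and STAR 2.5.3a the tools, per the submitters' processing notes, which give no roles here. In all 55536 genes of the broader table the length equals end minus start plus 1, per the file headers, so introns are counted. The smaller table (15645 genes, 0 with other values) was an alternative. Counts were filtered with filterByExpr and scaled with TMM in edgeR 4.0.16 (R 4.3.3). A robust quasi-likelihood fit of 4 group means gave 6 contrasts, adjusted by Benjamini-Hochberg over 16125 genes. The SE is the log2 fold change over the square root of F. A prior count of 2 was used for correlations. Alternatives were RLE scaling, DESeq2 1.42.0, no filter, the smaller table, a replicate block and each library left out. The script was tested on simulated data. Named were the 10 genes, Trp53, Mdm4, Ppm1d, Atm, Chek2, the 8 other pathway genes with the smallest averaged p, any called, and the 5 most like Cdkn1a (mean log2 CPM of at least 1, no predicted genes). Members and lists were chosen with earlier results of these data known. Exons were read from GENCODE M21.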

Additional observations from a re-analysis of the deposited data

How the results depend on the processing

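The count of called genes depended most on the tool, the filter and Con_F 4. DESeq2 called 81 genes in females, 29 in males, 334 averaged, 1 for the difference between the sexes, 224 for Con_F against Con_M and 80 for PGR_F against PGR_M. With no low count filter the counts were 25, 12, 146, 1, 131 and 51, and the cause was not tested. Averaged members called were 2 under each, and averaged pathway genes 2 and 1. For Con_F against Con_M, DESeq2 called 4 pathway genes (Mgmt, Notch1, Trp53i11, Trp63), no filter 2 and the replicate block 0. With the replicate block PGR_F against PGR_M had 35 genes. RLE scaling and the smaller table left all counts within 1.5 times. Leaving out 1 library gave 0 to 20 genes in females, 0 to 3 in males, 1 to 338 averaged (338 without Con_F 4, 34 without PGR_F 4), 14 to 99 for Con_F against Con_M and 10 to 44 for PGR_F against PGR_M; averaged pathway genes were 0 to 3, averaged members 0 to 2 and Con_F against Con_M pathway genes 0 to 1. The pathway gene called for Con_F against Con_M changed with the library left out. It was Mgmt without Con_F 4 and Notch1 without Con_M 1 (log2 fold change 1.20, edgeR adjusted p = 0.0366). Without PGR_F 4 it was Trp63 (-0.77, edgeR adjusted p = 0.0176). Of 1080 member fold changes under the alternatives, 42 changed sign. The averaged Phlda3 value was 0.0055 with no filter and 0.11 with the block, and Bax for PGR_F over PGR_M 0.10 with the block. With 1 library left out, log2 fold changes that changed sign ranged as follows: in females Mdm2 -0.080 to 0.016, Ccng1 -0.14 to 0.044, Sesn1 -0.11 to 0.072, Sesn2 -0.35 to 0.11; in males Cdkn1a -0.61 to 0.20, Eda2r -0.12 to 0.21, Bax -0.079 to 0.14, Sesn1 -0.032 to 0.21, Phlda3 -0.14 to 0.69; averaged over the sexes Sesn1 -0.025 to 0.097, Sesn2 -0.058 to 0.17, Phlda3 -0.17 to 0.25; for the difference between the sexes Cdkn1a -0.72 to 0.27, Trp53inp1 -0.14 to 0.026, Ccng1 -0.083 to 0.12, Sesn1 -0.23 to 0.014; for Con_F over Con_M Mdm2 -0.067 to 0.012, Aen -0.20 to 0.0053; for PGR_F over PGR_M Bax -0.17 to 0.077, Phlda3 -0.041 to 0.16. Replicate numbers were shared between groups. Over 16 same-numbered pairs the r of their deviations ran from -0.245 to 0.247, with a median of -0.02 and 3 over 0.1. The median over differently numbered pairs was -0.01, and 5 of 13 libraries correlated best with their own number. Whether some pairs shared a batch was not tested. Depth limits Phlda3 most, with 16 to 46 counts.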

Other observations

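Of the 84 other pathway genes, 6 were below the count filter. The death gene Pmaip1 had 0 to 2 counts per library and 10 in all. The p53 relative Trp73 had 0 to 5 counts, and Cdkn2a, whose product Arf restrains Mdm2, 0 to 2. Psrc1 had 0 to 6, Zfp365 1 to 9 and the kinase Plk3 5 to 17 counts. No vector or sex difference was measured for them.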
